A study of Homo sapiens with 16 samples.

Results

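The genes examined here are the MHC class II genes HLA-DRA, HLA-DRB1, HLA-DPA1, HLA-DPB1, HLA-DQA1, HLA-DQB1, HLA-DMA and HLA-DMB, together with CD74 and CIITA. They were taken by symbol from the table of estimated counts, where all 10 were found among 60603 genes. Total RNA had been sequenced from 2 established human lines of acute myeloid leukaemia (AML), U-937 and SKNO-1. Cells had received the solvent DMSO, all-trans retinoic acid (ATRA), Corin, or ATRA and Corin together, at 0.1 µM of each agent for 24 h. The 8 groups of line and treatment held 2 libraries each. ATRA activates retinoic acid receptors, and Corin inhibits the CoREST complex through its demethylase LSD1 and its class I histone deacetylases. All 8 SKNO-1 libraries, controls included, came from medium with GM-CSF at 10 ng/mL, a cytokine that acts on myeloid cells, and U-937 medium had none. Each line is a single cultured leukaemia, and line and medium cannot be told apart. The labels do not say whether the 2 libraries of a group came from separate cultures, so the p-values measure only the spread between these libraries, which may be technical.

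MHC class II molecules present peptides to CD4+ T cells and are carried mainly by B cells, dendritic cells, macrophages and monocytes, and by many AML blasts. An alpha and a beta chain pair in the endoplasmic reticulum with the invariant chain CD74, which fills the groove and directs the complex to endosomes. There HLA-DM, a pair of HLA-DMA and HLA-DMB, exchanges the last invariant chain fragment for a peptide, and HLA-DO, made of HLA-DOA and HLA-DOB, restrains HLA-DM. Transcription of most of these genes depends largely on CIITA, a coactivator that does not bind DNA itself. CIITA is recruited by the RFX complex, CREB and NF-Y to conserved X and Y boxes just upstream of the genes.

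The X and Y boxes are shown because they are the element known from the chain genes, HLA-DM and CD74, though not every window searched held both. Promoter windows from RefSeq (build GRCh38.p14, 250 bases before each start searched) were matched for 8 of the 10 genes. HLA-DRA and CIITA had no entry. The X1 core was searched as GNNACNNAT and the Y core as CCAAT, on both strands. An arrangement added after the windows had been read was the X1 core on the gene's strand followed, 15 to 40 bases further on, by the Y core in reverse (ATTGG). It was found for 3 of the 8 genes, HLA-DMA, HLA-DQB1 and HLA-DRB1, and in 97 of 35116 promoters in the table (0.276%). The related gene HLA-DRB5 also has it. In the stretches below, all on the minus strand, capitals mark the X1 core and, where present, ATTGG. HLA-DMB is shown for its X1 core, which is not followed by ATTGG in that interval.
HLA-DRB1, chr6:32589880-32589936: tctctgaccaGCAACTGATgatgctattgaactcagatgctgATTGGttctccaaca
HLA-DRB5, chr6:32530363-32530419: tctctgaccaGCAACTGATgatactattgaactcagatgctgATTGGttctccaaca
HLA-DQB1, chr6:32666731-32666787: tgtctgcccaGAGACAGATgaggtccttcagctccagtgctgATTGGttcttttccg
HLA-DMA, chr6:32953162-32953219: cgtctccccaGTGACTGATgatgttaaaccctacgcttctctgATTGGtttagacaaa
HLA-DMB, chr6:32941069-32941125: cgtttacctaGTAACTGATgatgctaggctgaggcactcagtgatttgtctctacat
The HLA-DRB1 and HLA-DRB5 stretches were identical at 56 of 57 bases. The Y core alone was present for 7 of 8 genes, all but HLA-DPA1, against 32.0% of all promoters. The X1 core alone was present for 6 of 8, all but CD74 and HLA-DQA1, against 19.4%. The X1 matches of HLA-DPA1 and HLA-DPB1 began 227 and 215 bases before the start, the latter on the opposite strand. A gamma-activated site, searched as TTCNNNGAA, was found for HLA-DQA1 only, against 6.57% of all promoters. Neither X2 form searched (TGACGTCA and TGCGTCA, held by 1.65% and 2.09% of all promoters) was found. The retinoic acid response element, as a direct repeat with a 5-base spacer, was not found in these windows either and was held by 0.0142% of all promoters. These matches describe letters only.

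Libraries held between 28.4 and 37.8 M estimated counts. The line labels were met by RUNX1T1, part of the fusion gene of SKNO-1, at 95.4 CPM or more in every SKNO-1 library and 0.033 CPM or less in every U-937 library. CPM are counts scaled to 1 M reads, on totals adjusted by TMM over all 16 libraries. The 2 DMSO libraries of SKNO-1 stood apart from each other. Their log2 differences over 9306 genes had an SD of 0.354, against 0.112 to 0.198 in the other 7 pairs, and followed GC content (r = -0.81 over these genes, a description, since genes are not replicates). SKNO-1 results against DMSO are therefore also given without one or the other of them. A low-count filter left 8 class II set genes to test in SKNO-1 (HLA-DQA1 and HLA-DQB1 did not pass) and 6 in U-937 (HLA-DPA1 and HLA-DPB1 did not pass either). HLA-DMB passed in SKNO-1 only through the Corin-treated libraries, so it had to differ there and is left out of the counts for that line, which cover 7 genes. Contrasts between lines are counted over the 5 genes that reach the filter's level in the DMSO libraries of both, since HLA-DPA1 and HLA-DPB1 passed only through SKNO-1 and HLA-DMB did not reach it with DMSO in SKNO-1. A gene is called changed where the edgeR quasi-likelihood test gave a Benjamini-Hochberg adjusted p under 0.05 over all genes tested. Values after ± are SD for levels and SE for log2 fold changes.

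**Figure D1:**
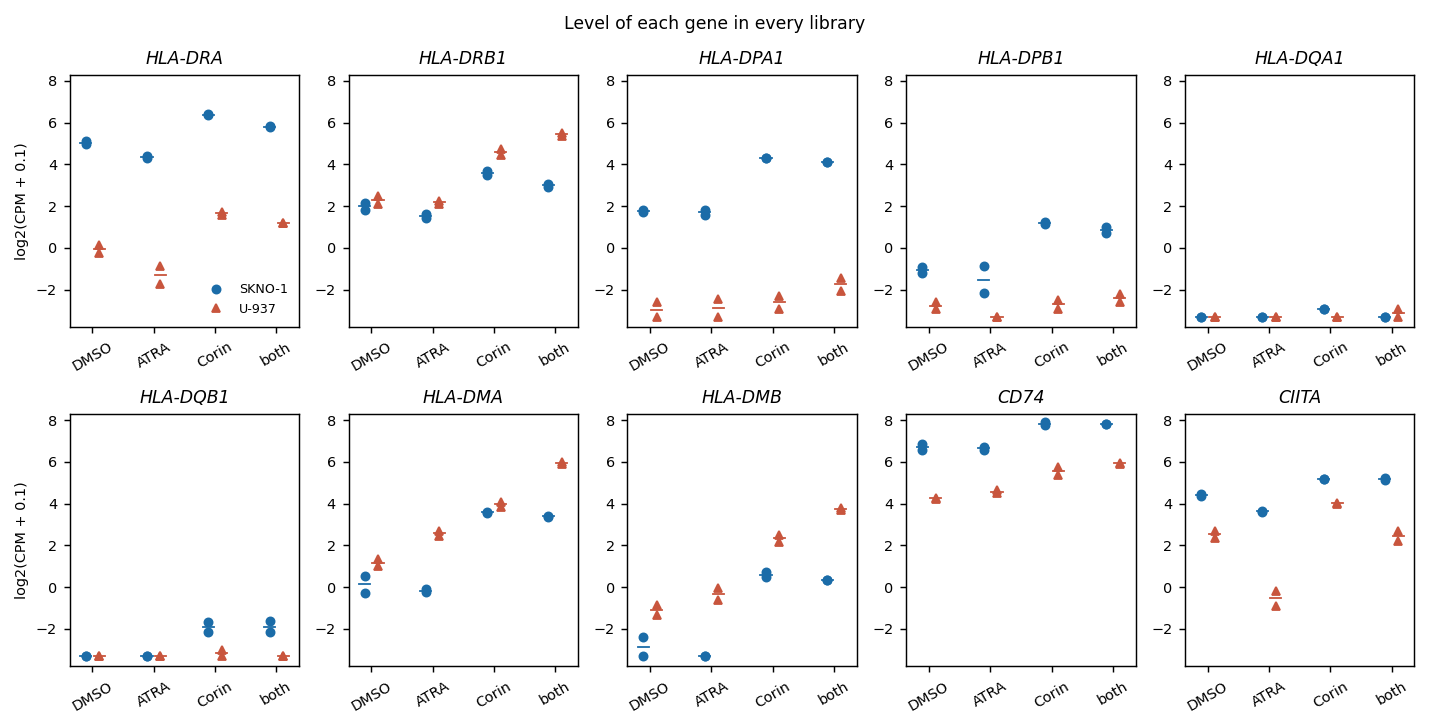
Level of each of the 10 genes in the 16 libraries, as log2(CPM + 0.1), by line and treatment. Points are libraries and bars are the mean of the 2 log2 values. HLA-DQA1 and HLA-DQB1 lie at or near the floor, and in U-937 HLA-DPA1 and HLA-DPB1 do so as well. CPM are not scaled for gene length, so panels are compared within a gene.

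The untreated lines carried different class II profiles. SKNO-1 held more CD74, HLA-DRA, HLA-DP and CIITA, and U-937 held more HLA-DM. CD74 in the DMSO libraries was 116 and 95.05 CPM in SKNO-1 and 18.7 and 19.1 CPM in U-937. CIITA was 22.2 and 20.5 CPM in SKNO-1 and 6.35 and 5.08 CPM in U-937. Both genes were higher in each SKNO-1 library than in either U-937 library. In U-937 the log2 level was lower by 2.48 ± 0.12 for CD74 (adjusted p = 1.17e-12) and by 1.9 ± 0.16 for CIITA (adjusted p = 2.84e-09).

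HLA-DRA, the invariant partner of all DR beta chains, was 34.2 and 31.5 CPM in SKNO-1 and 0.997 and 0.754 CPM in U-937, or 37.2-fold lower in U-937 (log2 difference -5.22 ± 0.17, adjusted p = 2.08e-15). HLA-DRB1, the polymorphic beta chain, was 4.32 and 3.44 CPM in SKNO-1 and 5.5 and 4.23 CPM in U-937, and these ranges overlapped. The HLA-DRB1 difference did not pass the test (log2 difference 0.33 ± 0.18, adjusted p = 0.11), but did with library totals as the only scaling (0.51, adjusted p = 0.0138), with a GC trend removed (0.4, adjusted p = 0.0384), without SKNO-1 DMSO replicate 1 (0.57, adjusted p = 0.0182) and without U-937 DMSO replicate 2 (0.54, adjusted p = 0.0322). The HLA-DP chains were all but missing from U-937. HLA-DPA1 had 0 and 2 estimated counts in the U-937 DMSO libraries against 115 and 113 in SKNO-1, and HLA-DPB1 had 1 and 2 against 14 and 12. On scaled counts the U-937 to SKNO-1 ratio was 0.00949 for HLA-DPA1 (exact conditional 95% counting interval 0.00114 to 0.0347) and 0.125 for HLA-DPB1 (0.0242 to 0.407). HLA-DM went the other way. HLA-DMA was 1.35 and 0.733 CPM in SKNO-1 and 2.45 and 1.9 CPM in U-937 (log2 difference 1.07 ± 0.24, adjusted p = 0.00056). HLA-DMB had 3 counts in SKNO-1 and 24 in U-937, a ratio of 8.66-fold (exact conditional 95% counting interval 2.63 to 44.9). Of the 5 genes counted, 1 was called higher and 3 lower in U-937, beside 31.7% and 33.1% of all 19872 genes tested (64.8% in either direction). Reads of these polymorphic genes were counted against 1 reference, so a difference between lines holds for the counts as deposited.

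In TPM, which are scaled for transcript length, the order of the set in SKNO-1 with DMSO was CD74 at 71.1 ± 7.38 (SD, n = 2), HLA-DRA, CIITA at 4.06 ± 0.396, HLA-DRB1, HLA-DPA1 at 2.13 ± 0.184, HLA-DMA at 0.785 ± 0.219 and HLA-DPB1 at 0.25 ± 0.028. In U-937 with DMSO it was CD74 at 16.4 ± 0.707, HLA-DRB1, HLA-DMA at 2.23 ± 0.2899, CIITA at 1.14 ± 0.021, HLA-DRA and HLA-DMB at 0.265 ± 0.049. The 2 libraries of neighbours in these orders did not overlap. The alpha and beta chains of DR stood in opposite order in the lines. In SKNO-1 with DMSO, HLA-DRA was 23.4 ± 4.14 TPM and HLA-DRB1 2.75 ± 0.205 TPM. In U-937 with DMSO, HLA-DRA was 0.785 ± 0.134 TPM and HLA-DRB1 4.38 ± 0.714 TPM. HLA-DRA was above HLA-DRB1 in all 8 SKNO-1 libraries and below it in all 8 U-937 libraries, whatever the treatment. With both agents in U-937, HLA-DRB1 was 27.8 ± 0.318 TPM beside 1.39 ± 0.113 TPM for HLA-DRA. HLA-DPA1 was above HLA-DPB1 in every SKNO-1 library, and HLA-DMA was above HLA-DMB in every library of both lines. With both agents in U-937, HLA-DMA was 43.5 ± 1.21 TPM and HLA-DMB 6.62 ± 0.424 TPM. HLA-DPA1 and HLA-DPB1 share 4786 bases on opposite strands, and how strand entered the counting is not given in the sources used here, so their values are uncertain where they overlap.

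**Figure D2:**
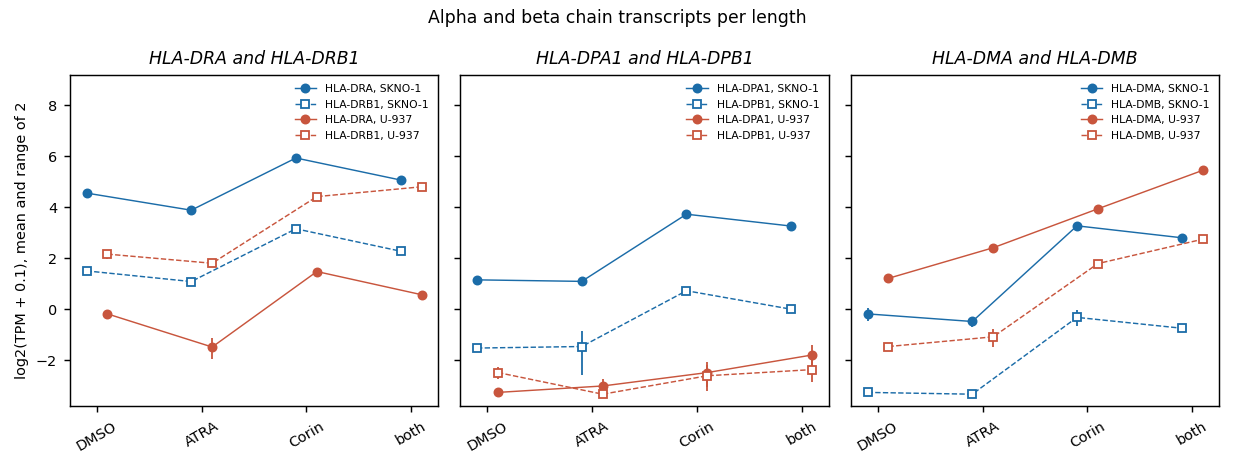
Chain transcripts per length, as log2(TPM + 0.1), for DR, DP and DM in each line. Points are the mean of 2 libraries, error bars span both, and the dashed lines only join groups of 1 gene. HLA-DRA lies above HLA-DRB1 in SKNO-1 and below it in U-937, and the DP values of U-937 rest on at most 13 counts over a group.

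Corin raised the class II set genes that could be tested in both lines. The smallest rise in SKNO-1 was 1.69-fold (CIITA) and the smallest in U-937 was 2.54-fold (CD74). Among these genes HLA-DMA rose most in SKNO-1, HLA-DMB left out, and HLA-DMB and then HLA-DMA in U-937. In SKNO-1, 7 of 7 genes, HLA-DMB left out, were called higher, beside 20.5% of all genes tested (37.9% in either direction), with a median log2 fold change of 1.61 beside 0.0013 over all genes. In U-937, 6 of 6 were called higher, beside 8.55% (12.9% in either direction), with a median of 2.05 beside 0. Without either SKNO-1 DMSO library, the same 7 genes were called in SKNO-1.

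CIITA in SKNO-1 went from 22.2 and 20.5 CPM with DMSO to 35.5 and 36.7 CPM with Corin, and in U-937 from 6.35 and 5.08 to 15.9 and 15.99 CPM. The groups did not overlap in either line. SKNO-1 had a log2 fold change of 0.76 ± 0.088 (adjusted p = 0.000451) and U-937 one of 1.48 ± 0.19 (adjusted p = 5.05e-06). CD74 in SKNO-1 went from 116 and 95.05 to 238 and 217 CPM, and in U-937 from 18.7 and 19.1 to 53.6 and 41.9 CPM. Each Corin library was above both DMSO libraries of its line, with log2 fold changes of 1.11 ± 0.11 (adjusted p = 0.000229) and 1.34 ± 0.12 (adjusted p = 1.09e-08).

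Among the chains that present peptide, HLA-DRA in SKNO-1 reached 83.8 and 80.95 CPM with Corin, 2.51-fold over DMSO (log2 fold change 1.33 ± 0.082, adjusted p = 2.46e-05). In U-937 it reached only 3.21 and 2.89 CPM, 3.47-fold over DMSO (1.8 ± 0.31, adjusted p = 0.00021). So Corin-treated U-937 stayed below untreated SKNO-1 for HLA-DRA in every library. HLA-DRB1 reached 12.8 and 10.9 CPM in SKNO-1 (log2 fold change 1.61 ± 0.17, adjusted p = 0.000316) and 26.6 and 21.5 CPM in U-937 (2.31 ± 0.15, adjusted p = 4.24e-11). HLA-DPA1 in SKNO-1 went from 3.45 and 3.19 to 19.4 and 19.3 CPM (2.55 ± 0.13, adjusted p = 1.05e-05). HLA-DPB1 went from 0.4198 and 0.338 to 2.098 and 2.22 CPM (2.5 ± 0.41, adjusted p = 0.00214). Both DP chains were thus raised by similar log2 amounts in SKNO-1, with no overlap between groups. HLA-DP stayed at a few counts in U-937 with Corin: HLA-DPA1 had 4 and 1 counts and HLA-DPB1 3 and 1, not distinguishable from DMSO at this depth (ratios 2.25-fold (exact conditional 95% counting interval 0.368 to 23.6) and 1.198-fold (exact conditional 95% counting interval 0.203 to 8.18)).

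The DQ chains were at or next to 0. HLA-DQA1 had at most 1 count in any of the 16 libraries. HLA-DQB1 had 0 counts in the 4 DMSO and ATRA libraries of SKNO-1, 7 and 4 with Corin and 7 and 4 with both agents. Against a floor of 3 counts over the DMSO group it was at least 3.84-fold higher with Corin and at least 3.93-fold higher with both agents. These ratios take the treated counts as observed, without their own counting error. It was below the low-count filter, and was called by edgeR without that filter (adjusted p = 0.0212 and 0.0155). In the authors' deposited DESeq2 comparisons its adjusted p was 0.136 with both agents, and none was given with Corin. In U-937 a single count of HLA-DQB1 was seen over 8 libraries.

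HLA-DM loads peptide. HLA-DMA had the largest rise of the 7 genes in SKNO-1, and HLA-DMB and then HLA-DMA the largest of the 6 in U-937. HLA-DMA in SKNO-1 went from 1.35 and 0.733 to 11.7 and 12.1 CPM, 11.5-fold (log2 fold change 3.52 ± 0.24, adjusted p = 4.09e-05). In U-937 it went from 2.45 and 1.9 to 16.98 and 14.4 CPM, 7.21-fold (2.85 ± 0.16, adjusted p = 3.47e-12). The groups were far apart in both lines. HLA-DMB in SKNO-1 had 3 and 0 counts with DMSO and 51 and 42 with Corin, a ratio of 32.5-fold (exact conditional 95% counting interval 10.8 to 160.2), given without a test. In U-937 HLA-DMB went from 0.302 and 0.459 to 5.62 and 4.399 CPM, 13.2-fold (3.72 ± 0.29, adjusted p = 9.73e-10). A gene that overlaps parts of both HLA-DMB and HLA-DMA on the same strand had at most 4.93 estimated counts in any library.

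ATRA alone moved the set in different directions. In SKNO-1 it lowered HLA-DRA and CIITA, and in U-937 it lowered the same 2 genes and raised HLA-DMA. Smaller rises of HLA-DMB and CD74 in U-937 were called or not depending on the fit. In SKNO-1, 2 of 7 were called lower, beside 3.79% of genes called lower and 6.76% called in either direction. The median log2 fold change of these 7 genes was -0.36, beside 0.012 over all genes. In U-937, 3 of 6 were called higher and 2 lower, beside 21.7% and 20.1% (41.8% in either direction). The median there was 0.096, beside 0.018.

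CIITA in SKNO-1 fell from 22.2 and 20.5 CPM with DMSO to 12.2 and 12.6 CPM with ATRA (log2 fold change -0.75 ± 0.090, adjusted p = 0.00199). In U-937 it fell from 6.35 and 5.08 to 0.773 and 0.44 CPM, 9.3-fold lower (-3.22 ± 0.26, adjusted p = 5.03e-10). The groups did not overlap in either line. HLA-DRA in SKNO-1 fell from 34.2 and 31.5 to 21.1 and 19.4 CPM (-0.66 ± 0.084, adjusted p = 0.00243). In U-937 it fell from 0.997 and 0.754 to 0.453 and 0.205 CPM (-1.39 ± 0.39, adjusted p = 0.00553). Every ATRA library was below both DMSO libraries for HLA-DRA.

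HLA-DMA in U-937 rose from 2.45 and 1.9 to 5.38 and 6.36 CPM (1.42 ± 0.17, adjusted p = 3.28e-07), with no overlap. HLA-DMB in U-937 rose from 0.302 and 0.459 to 0.5596 and 0.8799 CPM (0.91 ± 0.36, adjusted p = 0.0427), and CD74 from 18.7 and 19.1 to 22.3 and 25.1 CPM (0.33 ± 0.12, adjusted p = 0.0316). HLA-DRB1 was 4.21 and 4.69 CPM with ATRA, within reach of its DMSO values, and was not called. In SKNO-1, HLA-DRB1 was 2.98 and 2.58 CPM and CD74 94.9 and 105 CPM with ATRA. Neither passed the test, with log2 fold changes of -0.44 ± 0.18 and -0.041 ± 0.11. The SKNO-1 picture rested on the DMSO pair: without its replicate 2, HLA-DRB1, HLA-DMA and CD74 were called lower too (-0.66, -0.80 and -0.24). That fit called far more of all genes, so the shares given above for ATRA do not apply to it. In an edgeR fit of only the 4 ATRA and DMSO libraries of SKNO-1, 0 of 7 were called, with CIITA at an adjusted p of 0.0695 and HLA-DRA at 0.0768. In U-937, the calls of HLA-DRA, HLA-DMB and CD74 were lost without ATRA replicate 2 or DMSO replicate 1, and 2 of 6 remained called. CD74 was not called without DMSO replicate 2 either. HLA-DMB was also not called with DESeq2 (adjusted p = 0.0864), library totals only (0.0688), no low-count filter (0.0588) or only the libraries compared (0.0909). CD74 was not called with DESeq2 (adjusted p = 0.0755), library totals only (0.0623) or a GC trend removed (0.149). In the authors' deposited table for this comparison, their DESeq2 adjusted p was 0.142 for HLA-DRA, 0.400 for HLA-DMB and 0.0652 for CD74.

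**Figure D3:**
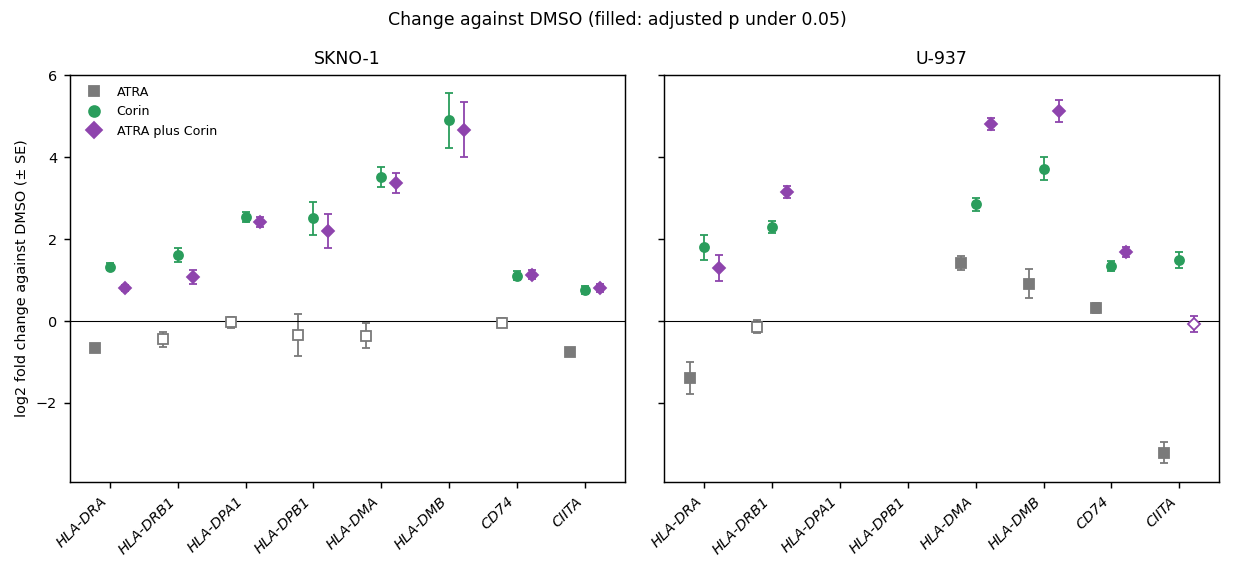
Log2 fold change against DMSO of each tested gene in each line for ATRA, Corin and both agents, with bars of 1 SE. Filled points passed the adjusted p of 0.05. Genes that were not tested, and HLA-DMB with ATRA in SKNO-1, are left blank. HLA-DMB is drawn with Corin and with both agents in SKNO-1, where it passed the filter only through the Corin-treated libraries. Its filled points there do not count as a test. All Corin points lie above 0, and the CIITA points of U-937 spread from -3.22 with ATRA to 1.48 with Corin.

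With both agents the tested genes rose in both lines, except CIITA in U-937. In SKNO-1, 7 of 7 genes, HLA-DMB left out, were called higher against DMSO, beside 24.7% of all genes (46.7% in either direction), with a median log2 fold change of 1.13 beside 0.055. The same 7 genes were called without either SKNO-1 DMSO library. In U-937, 5 of 6 were called higher, beside 33.1% (65.3% in either direction), with a median of 2.42 beside 0.034. The comparisons of ATRA, Corin and both agents in a line share the same DMSO libraries.

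CIITA in U-937 was 6.31 and 4.49 CPM with both agents, overlapping its DMSO values of 6.35 and 5.08 CPM (log2 fold change -0.071 ± 0.20, adjusted p = 0.771). In the same libraries HLA-DMA was 58.8 and 63.2 CPM, 28.03-fold over DMSO (4.81 ± 0.16, adjusted p = 8.21e-18). HLA-DMB was 13.6 and 13.02 CPM, 34.99-fold over DMSO (5.13 ± 0.28, adjusted p = 6.39e-14). Both HLA-DM chains were higher with both agents than in any other U-937 library. HLA-DRB1 was 40.97 and 45.1 CPM, 8.85-fold over DMSO (3.15 ± 0.15, adjusted p = 6.07e-15), and CD74 59.5 and 61.5 CPM (1.69 ± 0.12, adjusted p = 1.02e-11). HLA-DRA was 2.16 and 2.15 CPM, above DMSO (1.3 ± 0.32, adjusted p = 0.000924) and below both Corin libraries. HLA-DPA1 in U-937 had 5 and 8 counts with both agents, a ratio to DMSO of 6.32-fold (exact conditional 95% counting interval 1.43 to 57.7), and was not called in a fit without the low-count filter (adjusted p = 0.0984).

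In SKNO-1 with both agents, CIITA was 35.03 and 37.2 CPM (0.81 ± 0.088 against DMSO, adjusted p = 0.000236) and CD74 221 and 226 CPM (1.13 ± 0.11, adjusted p = 0.000146). HLA-DRA was 54.6 and 56.7 CPM (0.81 ± 0.082, adjusted p = 0.000163), HLA-DRB1 7.398 and 8.33 CPM (1.07 ± 0.17) and HLA-DPA1 17.2 and 16.96 CPM (2.41 ± 0.13). All were above both DMSO libraries. HLA-DPB1 was 1.87 and 1.53 CPM (2.21 ± 0.41), HLA-DMA 10.2 and 10.6 CPM (3.37 ± 0.24), and HLA-DMB had 37.02 and 38 counts, a ratio to DMSO of 26.8-fold (exact conditional 95% counting interval 8.81 to 133).

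ATRA added to Corin was compared with Corin alone within each line, and the difference between lines in this step was not tested. In SKNO-1, 1 of 7 genes was called: HLA-DRA was lower with both agents, at 54.6 and 56.7 CPM beside 83.8 and 80.95 CPM (-0.52 ± 0.080, adjusted p = 0.00687), where 5.6% of all genes were called lower and 10.4% in either direction. This call was lost when any 1 of the 4 libraries compared was left out, in fits that called far fewer of all genes. Over fits leaving out 1 library, the HLA-DRA log2 fold change stayed between -0.55 and -0.49. HLA-DRB1 had 7.398 and 8.33 CPM beside 12.8 and 10.9 CPM and missed the threshold (-0.55 ± 0.17, adjusted p = 0.0744). It passed with DESeq2 (adjusted p = 0.0422), without the low-count filter (0.0208) and with a GC trend removed (0.0177). It also passed in a fit of only these 4 libraries (adjusted p = 0.000324). These settings called more of all genes, 2545, 4238, 3046 and 7440 in that order, against 1822 in the main fit. Without either DMSO library it passed too (log2 fold change -0.54 each time), again with far more of all genes called. CIITA and CD74 of SKNO-1 overlapped between these groups, with log2 fold changes of 0.049 ± 0.086 and 0.022 ± 0.11. The sign of both turned with other scalings, and with a GC trend removed CD74 was called lower (-0.27, adjusted p = 0.00271). In U-937, 4 of 6 were called higher and 1 lower with both agents than with Corin, beside 29.9% and 30.6% of all genes (60.5% in either direction). HLA-DMA rose by a further 1.96 ± 0.12 on the log2 scale (adjusted p = 2.46e-12), HLA-DMB by 1.41 ± 0.20 (adjusted p = 1.5e-06) and HLA-DRB1 by 0.84 ± 0.13 (adjusted p = 4.84e-06). CD74 rose by 0.34 ± 0.11 (adjusted p = 0.0111), a call that was lost without Corin replicate 2 (0.17, adjusted p = 0.238) and with library totals as the only scaling. CIITA was lower with both agents than with Corin (-1.55 ± 0.19, adjusted p = 2.09e-07), and no library overlapped. HLA-DRA of U-937 was not called (-0.5 ± 0.28, adjusted p = 0.13).

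Adding Corin to ATRA raised every tested gene in both lines. Against ATRA alone, 7 of 7 were called higher in SKNO-1, beside 23% of all genes (44.8% in either direction), and 6 of 6 in U-937, beside 22.5% (47.4% in either direction). In SKNO-1 CIITA rose by 1.56 ± 0.091 (adjusted p = 1.39e-05), and U-937 gained 3.15 ± 0.26 (adjusted p = 4.03e-10). In SKNO-1 HLA-DRA rose by 1.47 ± 0.084 (adjusted p = 1.28e-05), and U-937 gained 2.69 ± 0.36 (adjusted p = 9.78e-07). The other log2 fold changes ran from 1.17 for CD74 to 3.72 for HLA-DMA in SKNO-1, leaving out HLA-DMB, and from 1.36 for CD74 to 4.22 for HLA-DMB in U-937. HLA-DMB of SKNO-1, with 0 counts in both ATRA libraries, was at least 26.7-fold higher with both agents against the floor of 3 counts over the group.

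Departure from additivity is what remains of the log2 change with both agents once the log2 change with ATRA and the log2 change with Corin have been subtracted. In U-937 it was above 0 for CIITA, by 1.66 ± 0.33 (adjusted p = 0.000506), and for HLA-DRB1, by 0.97 ± 0.21 (adjusted p = 0.00109). These were 2 of 6 tested, beside 8.09% of all genes with a departure above 0 and 23.4% in either direction. The rises of HLA-DMA, HLA-DMB and CD74 with both agents showed no called departure. In SKNO-1 the departure was called for CIITA alone (0.8 ± 0.12, adjusted p = 0.0476), where 0.315% of all genes were called above 0 and 0.463% in either direction. That call lay next to the threshold and was lost with library totals as the only scaling (adjusted p = 0.0584) and when any 1 of the 6 treated SKNO-1 libraries was left out. Without DMSO replicate 2, HLA-DRA and CD74 were called too. That fit called far more of all genes, so the shares above do not apply to it. Over fits leaving out 1 library, the CIITA departure ran from 0.76 to 0.93.

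Responses were also compared between the lines by an interaction contrast over all 16 libraries. The ATRA response differed for 2 of the 5 genes counted, 1 in each direction, beside 10.6% of all genes higher and 8.81% lower in U-937 (19.4% in either direction). It was lower in U-937 for CIITA, by 2.43 ± 0.28 on the log2 scale (adjusted p = 3.6e-06), and higher for HLA-DMA, by 1.82 ± 0.34 (adjusted p = 0.000608). CD74 was added without SKNO-1 DMSO replicate 2, and HLA-DRA without U-937 ATRA replicate 1. The shares above do not apply to those fits. Over fits leaving out 1 library, the CIITA difference ran from -2.95 to -2.15 and that of HLA-DMA from 1.25 to 2.16. The Corin response differed for CIITA alone, beside 5.28% of all genes higher in U-937 (12.8% in either direction), by 0.72 ± 0.21 (adjusted p = 0.0296). This call was lost with library totals as the only scaling and without 7 of the 16 libraries, left out in turn, with adjusted p up to 0.133. The response to both agents differed for 4 of 5, beside 17.9% of all genes higher and 22.7% lower in U-937 (40.6% in either direction). It was higher in U-937 for HLA-DRB1 by 2.12 ± 0.24 (adjusted p = 6.18e-07), for HLA-DMA by 1.48 ± 0.29 (adjusted p = 0.000352) and for CD74 by 0.6 ± 0.16 (adjusted p = 0.00611). It was lower for CIITA, by 0.83 ± 0.22 (adjusted p = 0.00464). The median over all genes in this contrast was -0.11.

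Among 10 other genes of the class II region, 1 passed the filter in SKNO-1 and 2 in U-937. HLA-DRB5, a second DR beta chain, shares reads with HLA-DRB1, and its split from it is a model estimate. In U-937 it went from 0.937 and 0.5897 CPM with DMSO to 6.21 and 5.59 with Corin and 13.9 and 14.7 with both agents, with log2 fold changes of 2.94 ± 0.23 (adjusted p = 1.96e-09) and 4.21 ± 0.23 (adjusted p = 8.76e-14). It thus stood near its DMSO level only with ATRA (0.799 and 0.8799 CPM). With all HLA-DRB genes summed into 1 feature, no HLA-DRB1 comparison within a line changed its direction or its call. HLA-DOB, the beta chain of the HLA-DM inhibitor, was lower with both agents in U-937, where 5 of 6 genes of the set were higher. It was 5.71 and 4.88 CPM with DMSO, 2.72 and 4.52 after Corin, 2.03 and 2.02 after ATRA and 1.48 and 0.991 after both agents. HLA-DOB fell with ATRA (-1.39 ± 0.26, adjusted p = 0.00013) and with both agents (-2.08 ± 0.28, adjusted p = 4.96e-07), and was not called with Corin. Its partner HLA-DOA had at most 1 count in any library.

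The 7 genes of the factors that bind X and Y boxes did not rise with Corin. Against DMSO, Corin lowered 3 of 7 in SKNO-1, beside 17.3% of all genes called lower. In U-937 edgeR called 0 of 7 (3 at an unadjusted p under 0.05, 0 by DESeq2), beside 12.9% of all genes in either direction. The medians were -0.36 and -0.21. NFYA, a subunit of the Y box factor NF-Y, fell in SKNO-1 with Corin (-0.8 ± 0.062, adjusted p = 7.15e-05) and with both agents (-1.03 ± 0.063, adjusted p = 1.51e-05). RFX5, a DNA-binding subunit of the RFX complex, fell in SKNO-1 with Corin (-0.45 ± 0.067, adjusted p = 0.00144). With both agents in U-937, 2 of 7 rose and 3 fell, beside 33.1% and 32.2% of all genes. RFXAP, a further RFX subunit, went from 11.6 and 13.5 to 2.93 and 2.51 CPM (-2.19 ± 0.18, adjusted p = 1.18e-10). With ATRA, edgeR called 0 of 7 in SKNO-1 (0 at an unadjusted p under 0.05, 0 by DESeq2), beside 6.76% of all genes in either direction. For U-937 it called 2 higher and 1 lower, beside 21.7% and 20.1%.

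Of 14 genes of interferon gamma signalling and of factors known to act on CIITA, 11 were tested in SKNO-1 and 12 in U-937. IFNG itself had 0 counts in all 16 libraries. IRF1, an interferon-induced factor that activates the CIITA promoter used after interferon gamma, rose with ATRA in both lines, where CIITA fell. It went from 26.3 and 21.5 to 74.6 and 77.6 CPM in SKNO-1 (1.71 ± 0.11, adjusted p = 6.98e-05) and from 8.76 and 8.45 to 103 and 107 CPM in U-937 (3.6 ± 0.11, adjusted p = 1.23e-17). PRDM1, a repressor of CIITA in plasma cells, rose in U-937 with ATRA (1.73 ± 0.18, adjusted p = 3.11e-08), Corin (0.75 ± 0.19, adjusted p = 0.00712) and both agents (3.11 ± 0.17, adjusted p = 1.52e-13). In SKNO-1, PRDM1 rose with Corin (1.86 ± 0.28, adjusted p = 0.00152) and was not called with ATRA. IRF8, a myeloid lineage factor, was 107 and 102 CPM in U-937 with DMSO and had at most 1 count in any SKNO-1 library. In U-937 it fell with ATRA to 74.3 and 76.03 CPM and with both agents to 59.8 and 67.97 CPM, and rose with Corin to 160.1 and 139 CPM, the direction of CIITA with each single agent. Over the 11 tested in SKNO-1, 3 genes rose and 1 fell with Corin, beside 20.5% and 17.3% of all genes. With ATRA 1 rose and 0 fell, beside 2.96% and 3.79%. SOCS1 did not reach the filter's level with DMSO in U-937 and is left out of the counts there. Over the other 11 tested in U-937, 4 rose and 1 fell with Corin, beside 8.55% and 4.4%. With ATRA 7 rose and 2 fell, beside 21.7% and 20.1%.

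**Figure D4:**
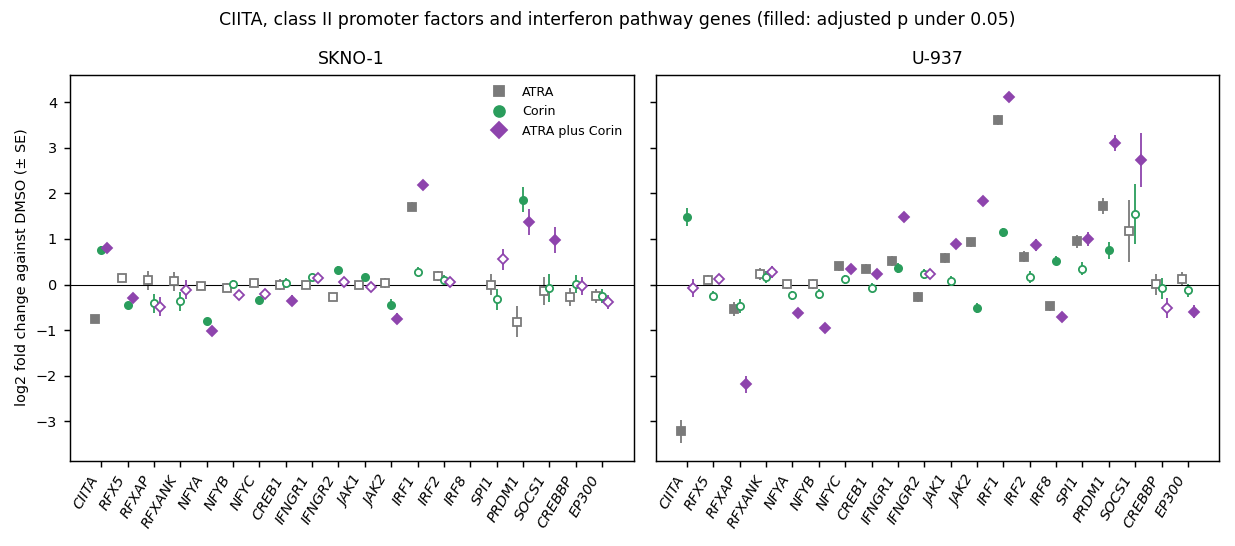
Log2 fold change against DMSO of CIITA, of the genes of X and Y box factors and of the interferon gamma list, by line and treatment. Filled points passed the adjusted p of 0.05. IRF1 lies above 0 with ATRA in both lines, where CIITA lies below 0.

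Genes of invariant chain cleavage and antigen processing were counted in each line. Of 10 tested in U-937, 8 rose with ATRA, 4 with Corin and 8 with both agents, beside 21.7%, 8.55% and 33.1% of all genes, and 1 fell with both agents. The medians were 0.96, 0.25 and 1.07. IFI30, a lysosomal thiol reductase that unfolds antigens, rose in U-937 with both agents from 58.9 and 61.8 to 944 and 1033 CPM (4.04 ± 0.13, adjusted p = 4.36e-18). CTSS, the protease that trims the invariant chain, rose in U-937 by 1.62 ± 0.11 with ATRA (adjusted p = 2.73e-11) and 2.48 ± 0.11 with both agents (adjusted p = 3.38e-15). In SKNO-1, edgeR called 0 of 12 tested with ATRA (1 at an unadjusted p under 0.05, 0 by DESeq2). It called 5 higher and 2 lower with Corin, and 5 higher and 3 lower with both agents. LGMN, among these 12, did not reach the filter's level with DMSO, and the edgeR calls were the same over the other 11. The shares of all genes were 6.76% in either direction with ATRA, 20.5% and 17.3% with Corin and 24.7% and 22% with both agents. IFI30 of SKNO-1 rose with Corin from 17.6 and 12.8 to 58.97 and 52.9 CPM (1.88 ± 0.15, adjusted p = 8.43e-05). Of 9 genes of surface turnover and CD74 partners, 7 were tested in each line, and Corin called 5 higher in SKNO-1 and 2 in U-937, with none lower, beside 20.5% and 8.55% of all genes called higher. CXCR4, a receptor that can pair with CD74 at the surface, rose with Corin by 1.25 ± 0.11 in SKNO-1 (adjusted p = 0.000125) and by 1.2 ± 0.11 for U-937 (adjusted p = 3.88e-08). MARCHF1, the ligase that removes class II from the surface of resting antigen-presenting cells, had at most 2 counts in any library.

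Markers of cells that carry class II moved with the treatments. The summed level of 6 monocyte and macrophage markers in SKNO-1 was 104 to 105 CPM with DMSO, 449 to 481 after Corin, 84.4 to 86.9 after ATRA and 609 to 621 after both agents. In U-937 it was 262 to 288, 2037 to 2434, 673 to 691 and 3198 to 3456 CPM in the same order. LYZ made up most of these sums except with ATRA in U-937, where it was 275 and 269 CPM and CD68 257 and 272 CPM, and CD14 was at 0 with DMSO and with ATRA in SKNO-1. With Corin 5 of 5 rose in SKNO-1 and 5 of 5 in U-937, beside 20.5% and 8.55% of all genes. CD14 was left out in SKNO-1, since it did not reach the filter's level with DMSO. With ATRA in SKNO-1, 3 of these 5 rose (CD68, CSF1R and ITGAM) and 2 fell (LYZ and FCGR1A). Their median log2 fold change was 1.28, and 2.96% and 3.79% of all genes were called higher and lower. In U-937 with ATRA, 4 of 5 rose and 0 fell, beside 21.7% and 20.1%. The sum of 5 dendritic cell markers in SKNO-1 was 0.8996 to 0.9302 CPM with DMSO and 9.38 to 10.1 with Corin, nearly all of it FCER1A, and in U-937 it was 0.0907 to 0.131 and 0.597 to 1.03 CPM. XCR1 was at 0 in every library. Of 5 B cell markers, MS4A1 was at 0 in all 16 libraries. The sum was 25.5 to 35.2 CPM with DMSO and 26.3 to 29.2 with Corin in SKNO-1, and 10.9 to 13.6 and 10.6 to 11.1 in U-937. With both agents it was 28.9 to 30.7 CPM in SKNO-1 and 5.62 to 6.41 in U-937. Single markers did not all stay level with Corin. In SKNO-1, 1 of 3 was called higher and 0 lower, beside 20.5% and 17.3% of all genes. In U-937, 1 of 3 was called higher and 1 lower, beside 8.55% and 4.4%. CD79B was left out there, as it did not reach the filter's level with DMSO. The T cell receptor subunits CD3D, CD3E and CD3G were at or near 0 throughout, and CD2 accounted for nearly all of a T cell sum that reached 2.22 to 3.14 CPM with both agents in U-937. The part of these marker changes in the class II results was not tested. In bulk RNA, a larger share of cells with class II transcripts and more transcripts per cell cannot be told apart.

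The genes whose levels were most like those of CD74 were taken in each line from protein-coding genes outside all lists, by Pearson correlation of log2(CPM + 0.5) over the 8 libraries. These correlations are a description, since the libraries share 4 treatments. In SKNO-1 they were HLA-E (r = 0.998), CARHSP1, REEP2, SLC18B1 and PAFAH2 (r = 0.996 for the last). HLA-E, a class I gene that presents leader peptides to natural killer cells, had group means of 81.5 CPM with DMSO, 171 after Corin, 78.5 after ATRA and 166 after both agents. In U-937 they were LY86 (r = 0.997), SDC4, STAT3, HERPUD1 and CREB3 (r = 0.988). LY86 encodes MD-1, which binds a B cell surface receptor, and had group means of 5.51, 21.7, 7.05 and 33.1 CPM in the same order. Among the class II set, HLA-DMB left out, the correlation with CD74 in SKNO-1 ran from 0.913 for CIITA to 0.994 for HLA-DMA. In U-937 it was 0.988 for HLA-DMB, 0.959 for HLA-DMA, 0.975 for HLA-DRB1, 0.795 for HLA-DRA and 0.472 for CIITA.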

How the data were processed

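Total RNA had been sequenced in 16 libraries, 2 for each of 4 treatments in each of 2 cell lines. Per the labels' protocols, a stranded kit for total RNA and an ERCC spike-in were used, and libraries were read from both ends (100 bp), to a depth of 50 M reads or more. The submitters' processing notes name Trimmomatic, STAR, RSEM, deepTools, DESeq2 and hg38. How strand was used and the annotation release are not given in the sources used here. The authors deposited estimated counts and TPM per gene from RSEM, per the file headers, with gene lengths used here only for reference. RSEM divides reads that match several genes, and 13.2% of positive values of the class II set were not whole (tolerance 1e-06), against 20.4% over all genes. The labels name paired ends and the names of the files single ends, so whether a count is a read or a fragment is not known. The table holds 0 spike-in entries, so RNA per cell was not measured. Log2 fold changes and adjusted p-values of the authors' own comparisons were deposited too, from DESeq2, per the file headers. These are quoted only where named.

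Counts were rounded, filtered with filterByExpr and scaled by TMM, and edgeR 4.0.16 in R 4.3.3 fitted a robust quasi-likelihood model to the 8 libraries of each line (17479 genes in SKNO-1, 17717 in U-937, 4 residual degrees of freedom) and to all 16 for contrasts between lines (19872 genes). The script was tested on simulated counts. Adjusted p-values are Benjamini-Hochberg values over all genes tested. The SE is the absolute log2 fold change over the square root of its F statistic. A group with 0 counts is given a floor of 3 counts, which covers the counting error of that group only. For 1 to 3 counts a ratio with an exact conditional 95% interval is given, which covers counting error only. Positions are from GENCODE 44 on GRCh38, and promoters from RefSeq on GRCh38.p14.

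All 10 genes of the set are named, with genes of the other lists and the 5 protein-coding genes per line, of at least 5 CPM, most correlated with CD74. The set and the lists were chosen with earlier results of these data known. Leaving genes below the filter's level with DMSO out of the counts was decided after the data had been seen. An item of the interferon gamma list is not reported here. Alternatives were DESeq2 1.42.0, RLE size factors, library totals only, no low-count filter, the replicate number as a block, removal of a GC trend per library, only the libraries compared, HLA-DRB genes summed, and each library left out in turn.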

Additional observations from a re-analysis of the deposited data

Results flagged for a closer look

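A difference between the lines, tested by an interaction contrast, singled out 7 results on 4 genes. For CIITA the log2 response in U-937 minus that in SKNO-1 was -2.43 for ATRA (adjusted p = 3.6e-06), 0.72 for Corin (adjusted p = 0.0296) and -0.83 for both agents (adjusted p = 0.00464). The CIITA difference thus had another sign for Corin than for the groups with ATRA. For HLA-DMA it was 1.82 for ATRA (adjusted p = 0.000608) and 1.48 for both agents (adjusted p = 0.000352). HLA-DRB1 differed by 2.12 (adjusted p = 6.18e-07) and CD74 by 0.60 (adjusted p = 0.00611) with both agents. All contrasts between lines rest on the SKNO-1 DMSO pair, whose libraries stood apart. Line and medium cannot be told apart.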

How the results depend on the processing

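Counts of called class II set genes, here over all tested members with HLA-DMB and HLA-DP included, were recomputed for 16 comparisons. In several refits the number of all genes called changed as well, so these counts do not compare with the shares of the main fits. The Corin, ATRA plus Corin versus DMSO and ATRA plus Corin versus ATRA counts kept their side in both lines under every alternative run. SKNO-1, both agents versus Corin (1): 2 with DESeq2, 2 with no low-count filter, 3 with the GC trend removed, 2 with only the libraries compared, and 0 to 2 leaving out 1 library. SKNO-1, ATRA versus DMSO (2): 0 with only the libraries compared (239 of all genes called, against 1181), and 2 to 6 leaving out 1 library. SKNO-1 departure (1): 0 with library totals only, 0 with the replicate block, and 0 to 4 leaving out 1 library. U-937, ATRA versus DMSO (5): 3 with DESeq2, 3 with library totals only, and 2 to 5 leaving out 1 library. Corin response between lines (1): 0 with library totals only, 2 with no low-count filter, 3 with the GC trend removed, and 0 to 3 leaving out 1 library. ATRA response between lines (2): 2 to 4 leaving out 1 library.

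Of single genes, 6 values turned sign in other fits, and the cause was not tested. In SKNO-1 for both agents versus Corin, CD74 was -0.016 with DESeq2, -0.016 with RLE size factors, -0.028 with library totals only and -0.27 with the GC trend removed, and CIITA was -0.0016 with library totals only and -0.19 with the GC trend removed. Leaving out 1 library turned values near 0: in SKNO-1 with ATRA, HLA-DPA1 ran from -0.20 to 0.037, HLA-DPB1 from -1.6 to 0.22, HLA-DMA from -0.80 to 0.12 and CD74 from -0.24 to 0.092. CD74 for both agents versus Corin in SKNO-1 ran from -0.047 to 0.088, CIITA for both agents versus DMSO in U-937 from -0.34 to 0.14, and HLA-DRB1 with ATRA in U-937 from -0.31 to 0.070.

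The replicate numbers did not pair the libraries: the correlations of replicate differences between groups of a line ran from -0.49 to 0.42. With the replicate block the call of CIITA in the SKNO-1 departure (0.80, adjusted p = 0.134) and of HLA-DMB with ATRA in U-937 (0.91, adjusted p = 0.0558) was lost, and no other call given for the 10 genes of the class II set changed. Other genes were not refitted with it. The scaling moved the median of all genes by 0.15 to 0.21 in the U-937 comparisons with both agents, by 0.16 between the lines with DMSO and by 0.19 in the response to both agents between lines. A group of 2 libraries limits all tests, and HLA-DPB1 in U-937 and HLA-DQA1, under 10 counts in every group, were not resolved.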

Other observations

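DEXI lies on the strand opposite to CIITA and overlaps it by 13578 bases (GENCODE 44). Its estimated counts in U-937 were 739 and 686 with DMSO, 637 and 628 with ATRA, 820 and 632 with Corin, and 596 and 552 with both agents. CIITA had 210 and 155, 29 and 15, 621 and 509, and 222 and 136 estimated counts in the same libraries. DEXI counts therefore spanned a much narrower range than those of CIITA. In SKNO-1, DEXI lay between 411 and 532 in all 8 libraries.

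HLA-DQB2, a gene of the class II region with restricted expression, had 4 and 1 estimated counts with Corin in SKNO-1 and 0 and 1 with DMSO, which is too few to compare. HLA-DPB2, a pseudogene of the DP region, had 1 and 5 counts with both agents in U-937 and 0 with every other treatment of that line.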
